A study of Mus musculus with 24 samples.

Results

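De novo fatty acid synthesis was followed through 9 genes in the livers of mice kept on 4 diets: Acly, Acss2, Acaca, Acacb, Fasn, Me1, Thrsp, Mlxipl and Pklr. They were picked by name, as every probe set of the array whose only gene symbol was one of the 9. This gave 23 probe sets, of which 19 passed a filter on low signals, and all 9 genes were among the 13384 genes that could be tested. Each gene is described by its probe set of highest mean signal, and the other probe sets are given further on.

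The liver makes fatty acids from acetyl-CoA in the cytosol. Acly, ATP citrate lyase, frees acetyl-CoA from citrate that has left the mitochondria, and Acss2, a cytosolic acetyl-CoA synthetase, makes it from acetate. The acetyl-CoA carboxylases Acaca and Acacb turn acetyl-CoA into malonyl-CoA, Fasn (fatty acid synthase) joins these units into palmitate, and Me1 (malic enzyme) supplies part of the NADPH that the synthase uses. Pklr, the pyruvate kinase of liver, closes glycolysis upstream of these steps. Mlxipl encodes ChREBP, a transcription factor that responds to sugar, and Thrsp encodes a small nuclear protein that is abundant in lipogenic tissue. In liver, the enzymes are known to be induced by feeding on carbohydrate through ChREBP and SREBP proteins and to be lowered by fasting and by polyunsaturated fat.

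All 24 mice were females of strain NMR-1, were 8 weeks old at the start and stayed on their diet for 2 weeks, with 6 mice per diet. The pellet diet was the feed on which they were raised and serves as the reference. The chimpanzee diet was made of plant foods and yogurt, the cafeteria diet (labelled HumanCafe) of cooked staff meals, and the fast food diet (FastFood) of McDonald's food alone. The study pooled the last pair as human diets. Littermates were spread over the diets but are not labelled, and the methods state that fast food mice gained the most weight. Fat, sugar and energy intake per mouse were not analysed here. Each mouse gave 1 array of whole liver, so fewer cells of a type and less RNA per cell cannot be told apart. Signals are log2 values, on which 1 unit is a doubling, and the levels of different genes are not compared because probe sets differ in brightness.

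Each diet held 3 mice of each of the 2 processing batches. Signal range was wider in batch 1 than in batch 2, with a 90th percentile of 6.50 ± 0.07 (SD, n = 12) against 6.04 ± 0.20, and 4 arrays of batch 2 lay below 5.9, namely chimpanzee replicates 1 and 2, cafeteria replicate 3 and fast food replicate 2. The difference between the beta-actin control probe sets of the 2 transcript ends, which grows with RNA degradation, was 1.08 ± 0.15 on the chimpanzee diet and 0.75 ± 0.14 on pellets (n = 6 each, exact permutation test within batches, two-sided, p = 0.005, adjusted over 8 tests 0.02). It was 0.91 ± 0.05 on the cafeteria diet and 0.80 ± 0.13 on fast food, and pooled human minus chimpanzee was -0.23 (exact permutation test, p = 0.000992, adjusted 0.00794). The 8 measured hepatocyte markers summed to between 25000 and 34300 signal units on every array. Of 7 Kupffer cell (liver macrophage) markers, 4 were called lower on the chimpanzee diet than on pellets, where 7.43% of all genes were. Their sums were 304 to 752 against 644 to 1220, with 309 to 993 on the cafeteria diet and 567 to 1060 on fast food. No marker of the other cell types was called between pellet, chimpanzee and pooled human diets (limma). The markers were not tested for the cafeteria or fast food diet alone. Of 6 adipocyte markers on the array, Adipoq, Lep and Cidec did not pass the filter on low signals. The other 3, Retn, Fabp4 and Lipe, passed it, with means of 3.692, 4.545 and 4.127 over all arrays.

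The promoters of the genes on which the results turn are shown first, since expression of the pathway is known to be set largely at transcription. All 9 genes had at least 1 promoter among 12 entries of the RefSeq table (build GRCm38.p6), each running from 250 bases before the start site to 50 bases from it. Acss2 and Acly were called lower than on pellets on the chimpanzee, cafeteria and fast food diets. Fasn and Pklr were called lower on the cafeteria diet than on pellets and on the chimpanzee diet, and Fasn also on fast food against pellets. Capitals mark the CCAAT box (bound by NF-Y), the GC box GGGCGG (bound by Sp1) and, in Pklr, the spaced pair CACGNNNNNNNNNCGTG, on either strand.
Acss2, chr2:155517793-155518092, + strand: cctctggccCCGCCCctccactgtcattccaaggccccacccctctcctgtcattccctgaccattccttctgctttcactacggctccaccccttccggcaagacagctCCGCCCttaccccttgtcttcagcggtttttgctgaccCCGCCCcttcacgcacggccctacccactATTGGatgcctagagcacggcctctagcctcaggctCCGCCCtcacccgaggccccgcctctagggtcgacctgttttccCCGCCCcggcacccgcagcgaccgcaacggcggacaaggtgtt
Acly, chr11:100527951-100528250, - strand: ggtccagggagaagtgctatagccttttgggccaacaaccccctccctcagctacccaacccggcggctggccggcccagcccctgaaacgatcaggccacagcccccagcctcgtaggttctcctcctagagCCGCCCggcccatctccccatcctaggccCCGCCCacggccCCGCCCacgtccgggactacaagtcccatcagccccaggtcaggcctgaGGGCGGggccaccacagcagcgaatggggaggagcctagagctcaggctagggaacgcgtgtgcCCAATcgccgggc
Fasn, chr11:120824498-120824797, - strand: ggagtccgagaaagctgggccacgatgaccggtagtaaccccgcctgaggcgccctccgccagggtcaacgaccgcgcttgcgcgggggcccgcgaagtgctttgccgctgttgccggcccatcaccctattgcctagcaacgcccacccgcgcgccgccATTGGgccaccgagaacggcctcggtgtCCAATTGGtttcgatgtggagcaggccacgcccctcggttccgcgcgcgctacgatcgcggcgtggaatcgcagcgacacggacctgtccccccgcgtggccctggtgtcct
Pklr, chr3:89136373-89136672, + strand: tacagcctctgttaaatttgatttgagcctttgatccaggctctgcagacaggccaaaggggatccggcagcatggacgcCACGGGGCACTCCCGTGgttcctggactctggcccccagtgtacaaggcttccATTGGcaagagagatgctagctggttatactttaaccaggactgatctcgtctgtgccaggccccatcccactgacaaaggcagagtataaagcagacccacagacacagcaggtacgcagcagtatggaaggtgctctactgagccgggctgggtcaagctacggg

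The Acss2 promoter held 5 GC boxes and 1 CCAAT box, and the Acly promoter 4 and 1, while the Fasn promoter held 3 CCAAT boxes and no GC box in these letters. In Fasn a pair of the CCAAT boxes overlapped on opposite strands. At least 1 CCAAT box was present in 8 of the 12 member promoters and at least 1 GC box in 4, against 37.4% and 35.7% of all 32851 promoters in the table. The E-box CACGTG was found in 1 member promoter, that of Mlxipl, and in 7.15% of all promoters, and CACCCCAC, part of the classical sterol regulatory element, in 0 of the 12 and in 2.87% of all. The spaced pair is the arrangement of the carbohydrate response element known from the rat gene, and was searched for after the sequences had been seen. It began 170 bases before the start site in the Pklr promoter shown, was absent from the other 11 entries and was present in 0.28% of all promoters. The 5 patterns were searched on both strands, and no 2 different ones overlap in the promoters shown. These are matches of letters and were not tested against expression.

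Diet made a difference to 7 of the 9 genes. The test was the moderated F of limma with batch as covariate, passed at 0.05 after Benjamini-Hochberg adjustment over all genes, and 9% of all genes passed the same test. The exceptions were Thrsp (adjusted p = 0.496) and Mlxipl (adjusted p = 0.0689). Acacb was close to the threshold (adjusted p = 0.0493), and leaving out any of 17 of the 24 mice ended its call. Me1 (adjusted p = 0.0249) lost its call without any of 6 mice, which were replicates 1 and 2 of both cafeteria batches, pellet batch 1 replicate 1 and pellet batch 2 replicate 3, with adjusted p between 0.0512 and 0.0655. The test of a diet difference that changes with batch gave 0 members at an unadjusted p of 0.05, at which 1.16% of all genes passed, and the smallest p was 0.113 for Pklr.

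**Figure D1:**
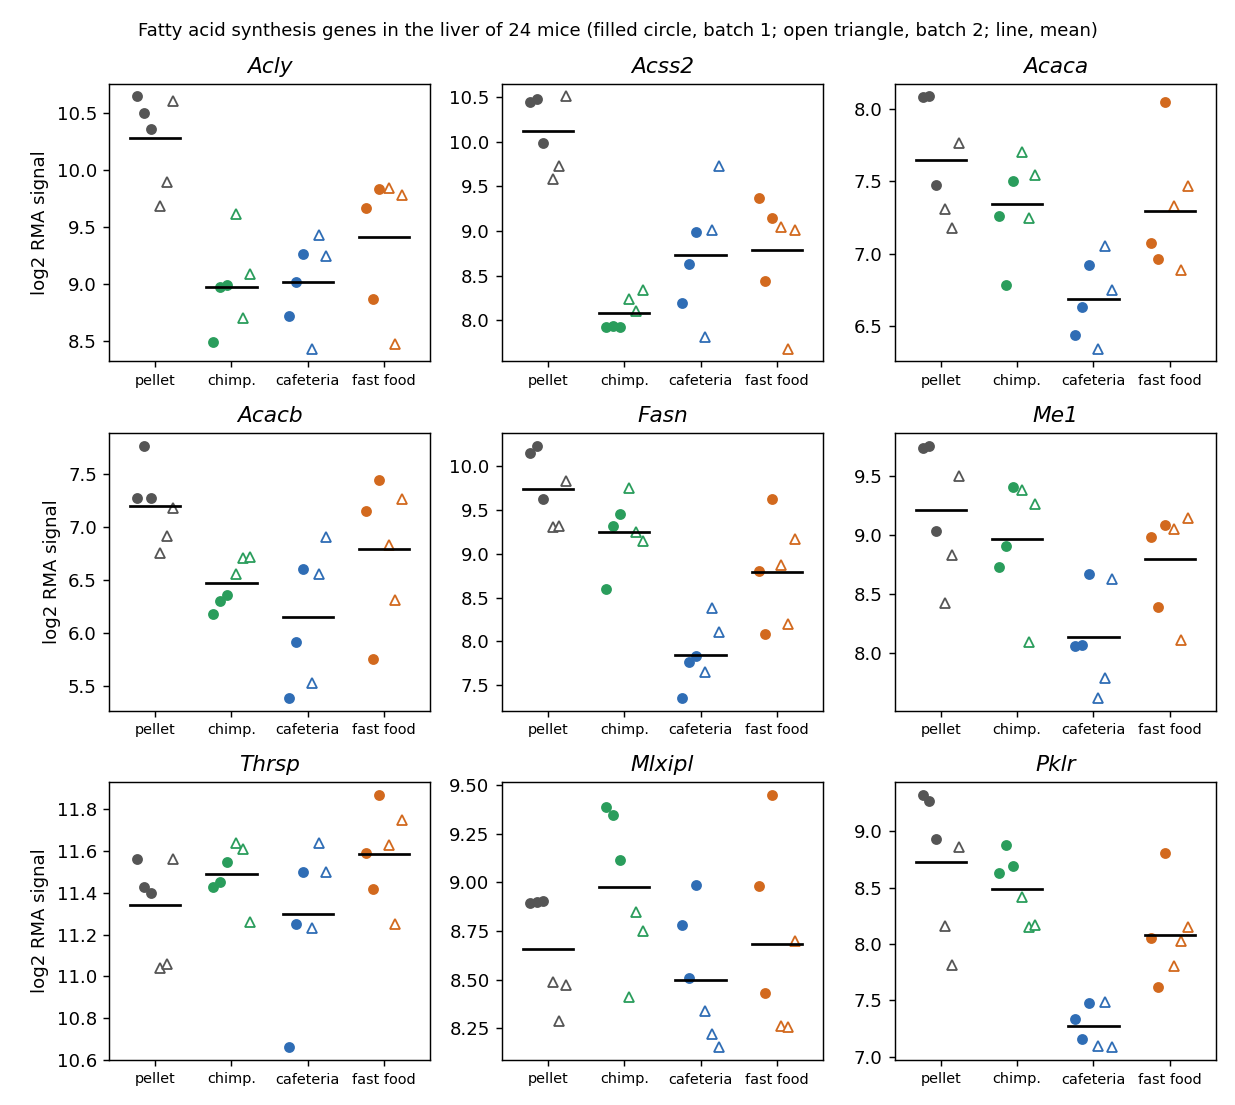
Log2 signal of the 9 genes in each of 24 mice by diet, with filled circles for batch 1, open triangles for batch 2 and a line at the mean of 6 mice. Acly and Acss2 are highest on pellets, Fasn and Pklr are lowest on the cafeteria diet (means of 7.85 and 7.27), and the 4 diets overlap for Thrsp and Mlxipl.

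Against pellets, more of the pathway was called on the cafeteria diet than on the others. On the cafeteria diet 7 of the 9 genes fell and 0 rose (the same limma fit of 24 mice), where 4.8% of all genes were called and 2.89% were called lower. Their median difference was -1.07, beside -0.01 for all genes. On the fast food diet 3 fell, Acly, Acss2 and Fasn, where 3.4% of all genes were called and 1.74% lower, and the median of the 9 was -0.42. On the chimpanzee diet 2 fell, Acly and Acss2, where 10.4% of all genes were called and 7.43% lower, and the median was -0.31. These 3 comparisons share the 6 pellet mice. With the human diets pooled (12 mice), 4 genes fell against pellets, Acly, Acss2, Fasn and Pklr, at a background of 4.98% called and 2.82% called lower.

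**Figure D2:**
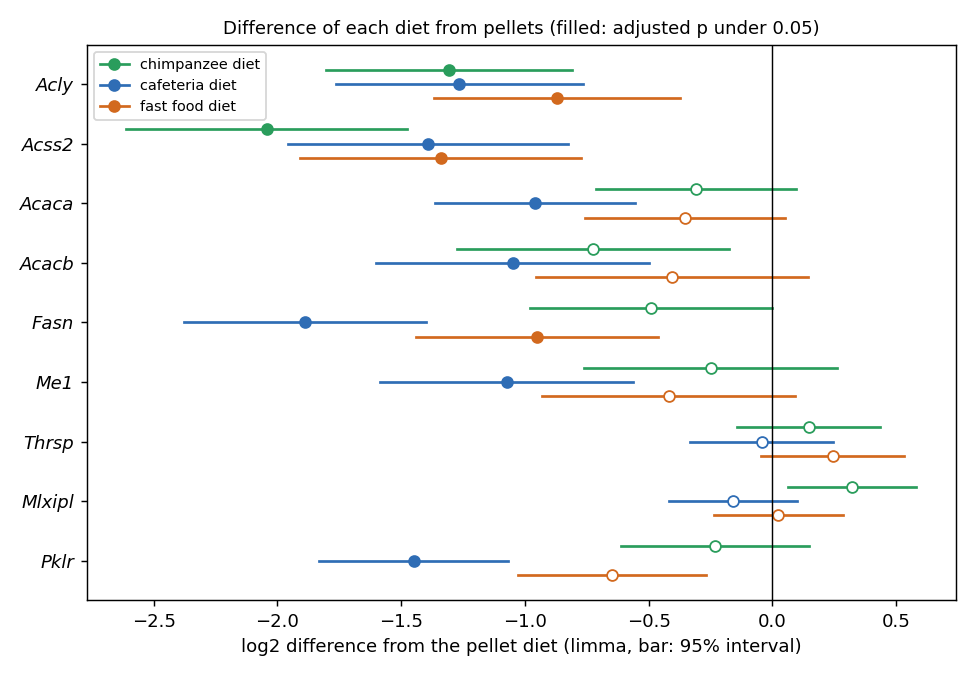
Log2 difference of each diet from pellets for the 9 genes, with the 95% interval of limma and filled points at an adjusted p under 0.05. The cafeteria diet has 7 filled points, the fast food diet 3 and the chimpanzee diet 2, and all 12 lie below 0.

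Differences among the other diets were fewer. Pooled human diets against the chimpanzee diet, the comparison that the study was about, gave 1 member, Pklr, which was lower by 0.82 on the log2 scale with an adjusted p of 0.0498, at a background of 1.49% called. Its adjusted p was 0.38 once the fit held the beta-actin difference of each array. The call was also lost when any of 14 of the 18 mice was left out, and adjusted p then ran from 0.0618 to 0.139. The mice without which it held were fast food batch 1 replicate 3, fast food batch 2 replicates 2 and 3, and cafeteria batch 2 replicate 3. Between the cafeteria and fast food diets 0 members and 0.00747% of all genes were called, although all 9 differences were below 0 and 5 members had an unadjusted p under 0.05. The study's own type of linear model, described with the processing, called 3 members here at an unadjusted p of 0.01 and 0 after adjustment. For Pklr and Thrsp it read other probe sets than the ones described here. No alternative setting called more than 235 of all genes in this comparison. The cafeteria diet against the chimpanzee diet and fast food against the chimpanzee diet were added after the values had been seen. Fasn and Pklr fell in the first (2 of 9, background 1.26%) and kept their calls when the fit held the beta-actin difference, and 0 members were called in the second (background 2.03%, 3 members with an unadjusted p under 0.05, and 0 by the linear model before or after adjustment). The share of all genes at an unadjusted p under 0.05 was not counted for any of these comparisons.

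The acetyl-CoA suppliers fell on every diet other than pellets. Acss2 signals ran from 9.58 to 10.51 (median 10.22) on pellets, from 7.93 to 8.34 (8.02) on the chimpanzee diet, from 7.81 to 9.73 (8.81) on the cafeteria diet and from 7.68 to 9.37 (9.03) on fast food. No chimpanzee or fast food mouse reached the lowest pellet mouse, whereas 1 cafeteria mouse did, batch 2 replicate 3, whose array was among those of narrow range. The gene fell 4.12-fold on the chimpanzee diet (log2 difference -2.04 ± 0.27 SE, adjusted p = 3.05e-05), and the difference was -2.37 in batch 1 and -1.71 in batch 2. It fell 2.63-fold on the cafeteria diet (-1.39 ± 0.27, adjusted p = 0.00261) and 2.53-fold on fast food (-1.34 ± 0.27, adjusted p = 0.00432). The order of means was chimpanzee, cafeteria, fast food and pellet, and neither neighbouring pair among the lower 3 differed at the threshold. Cafeteria minus chimpanzee was 0.65 with a 95% interval of 0.08 to 1.22, and cafeteria minus fast food was -0.05 with an interval of -0.62 to 0.51. Chimpanzee mice were the most alike, with an SD of 0.18 against 0.41 to 0.68 on the other diets.

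Acly moved in the same way with a smaller step. Signals ran from 9.69 to 10.65 (median 10.43) on pellets, from 8.49 to 9.62 (8.98) on the chimpanzee diet, from 8.44 to 9.43 (9.13) on the cafeteria diet and from 8.47 to 9.85 (9.73) on fast food. The pellet mice lay above all chimpanzee and cafeteria mice and overlapped only with fast food mice. Against pellets Acly fell 2.48-fold on the chimpanzee diet (-1.31 ± 0.24, adjusted p = 0.000803), 2.4-fold on the cafeteria diet (-1.26 ± 0.24, adjusted p = 0.00183) and 1.83-fold on fast food (-0.87 ± 0.24, adjusted p = 0.0435). The fast food call was lost without any of 12 of the 24 mice, with adjusted p up to 0.128. Some of these were chimpanzee or cafeteria mice, which are outside the comparison but share its fit. Without them the difference stayed at -0.871 and adjusted p was 0.0503 to 0.0543. With the beta-actin difference of each array as a covariate, the chimpanzee call was lost (-1.16, adjusted p = 0.121), as was the fast food call (-0.85, adjusted p = 0.0635). The part of the Kupffer cell markers in the chimpanzee and cafeteria differences was not tested. Chimpanzee and cafeteria mice did not differ at the threshold (0.04, interval -0.45 to 0.54).

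Both genes of the malonyl-CoA step fell on the cafeteria diet against pellets and were called in no other pair of diets. Acaca, the carboxylase that feeds synthesis in the cytosol, ran from 7.18 to 8.09 (median 7.62) on pellets, from 6.79 to 7.70 (7.38) on the chimpanzee diet, from 6.34 to 7.05 (6.69) on the cafeteria diet and from 6.88 to 8.05 (7.20) on fast food. Every cafeteria mouse lay below every pellet mouse, and the other diets overlapped with pellets. Acaca fell 1.95-fold on the cafeteria diet against pellets (-0.96 ± 0.20, adjusted p = 0.00335). The chimpanzee difference was -0.31 (interval -0.71 to 0.09) and the fast food difference -0.35 (interval -0.76 to 0.05). Cafeteria minus fast food was -0.61 with an unadjusted p of 0.00489 and an adjusted p of 0.762.

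Acacb, the carboxylase on the outer mitochondrial membrane whose malonyl-CoA restrains fatty acid import, was more scattered than Acaca on the cafeteria diet (SD 0.63 against 0.27) and on fast food (0.65 against 0.43), but not on the other diets. Its signals ran from 6.76 to 7.77 (median 7.23) on pellets, from 6.17 to 6.72 (6.46) on the chimpanzee diet, from 5.38 to 6.90 (6.23) on the cafeteria diet and from 5.76 to 7.45 (6.99) on fast food. All chimpanzee mice lay below all pellet mice, but the difference of -0.73 (interval -1.28 to -0.18) missed the threshold with an adjusted p of 0.0894. Acacb fell 2.07-fold on the cafeteria diet (-1.05 ± 0.27, adjusted p = 0.0197). That call was lost without cafeteria batch 1 replicate 1 (adjusted p = 0.0578) and without pellet batch 1 replicate 2 (adjusted p = 0.0573). The difference was -1.48 in batch 1 and -0.63 in batch 2.

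Fasn showed the largest fold difference of the 9 on the cafeteria diet. Signals ran from 9.31 to 10.23 (median 9.72) on pellets, from 8.60 to 9.74 (9.28) on the chimpanzee diet, from 7.36 to 8.38 (7.80) on the cafeteria diet and from 8.09 to 9.62 (8.83) on fast food. Cafeteria mice lay below all pellet and all chimpanzee mice and overlapped with fast food mice. Fasn fell 3.71-fold on the cafeteria diet against pellets (-1.89 ± 0.24, adjusted p = 2.3e-05), by -2.35 in batch 1 and -1.43 in batch 2. It fell 2.64-fold against the chimpanzee diet (-1.40 ± 0.24, adjusted p = 0.00303), by -1.46 and -1.33 in the batches. On fast food it fell 1.93-fold against pellets (-0.95 ± 0.24, adjusted p = 0.0214), a call that was lost without fast food batch 1 replicate 2, fast food batch 2 replicate 2 or pellet batch 1 replicate 1 or 2 (adjusted p 0.0575 to 0.0703). Chimpanzee minus pellet was -0.49 (interval -0.98 to -0.003, adjusted p = 0.223). Cafeteria minus fast food was -0.94 (interval -1.43 to -0.45), with an unadjusted p of 0.000583 and an adjusted p of 0.39.

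Me1 means had the same order. Signals ran from 8.43 to 9.76 (median 9.27) on pellets, from 8.09 to 9.40 (9.09) on the chimpanzee diet, from 7.62 to 8.67 (8.06) on the cafeteria diet and from 8.11 to 9.14 (9.02) on fast food, and every pair of diets overlapped. It fell 2.1-fold on the cafeteria diet against pellets (-1.07 ± 0.25, adjusted p = 0.0101), a call that was lost with the beta-actin difference as covariate (-0.89, adjusted p = 0.0799). Chimpanzee minus pellet was -0.25 (interval -0.76 to 0.26) and fast food minus pellet -0.42 (interval -0.93 to 0.09).

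Pklr separated the cafeteria mice from all others. Signals ran from 7.81 to 9.32 (median 8.89) on pellets, from 8.15 to 8.88 (8.52) on the chimpanzee diet, from 7.08 to 7.48 (7.25) on the cafeteria diet and from 7.62 to 8.80 (8.04) on fast food. The highest cafeteria mouse lay below the lowest mouse of every other diet, and the cafeteria SD of 0.18 was the smallest of the 4. Pklr fell 2.73-fold on the cafeteria diet against pellets (-1.45 ± 0.18, adjusted p = 2.64e-05) and 2.32-fold against the chimpanzee diet (-1.22 ± 0.18, adjusted p = 0.00103). Against fast food the difference was -0.80 (interval -1.18 to -0.42), or -0.83 and -0.77 in the batches, with an unadjusted p of 0.000218 and an adjusted p of 0.267. Fast food minus pellet was -0.65 (interval -1.03 to -0.27) and just missed the threshold (adjusted p = 0.0513). Chimpanzee minus pellet was -0.23 (interval -0.61 to 0.15).

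Mlxipl and Thrsp were not called in any comparison. Mlxipl ran from 8.29 to 8.90 (median 8.69) on pellets, from 8.41 to 9.39 (8.98) on the chimpanzee diet, from 8.15 to 8.99 (8.42) on the cafeteria diet and from 8.26 to 9.45 (8.57) on fast food. It was highest on the chimpanzee diet, with 0.32 over pellets (interval 0.06 to 0.58, adjusted p = 0.117) and a cafeteria minus chimpanzee difference of -0.48 (interval -0.74 to -0.22, adjusted p = 0.0578). Cafeteria minus pellet was -0.16 (interval -0.42 to 0.10). Under cyclic loess, quantile normalization, array weights or the 90th percentile as covariate, Mlxipl passed the threshold as higher on the chimpanzee diet than on pellets and on the cafeteria diet (adjusted p 0.00806 to 0.0309).

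Thrsp ran from 11.04 to 11.56 (median 11.41) on pellets, from 11.26 to 11.64 (11.50) on the chimpanzee diet, from 10.66 to 11.64 (11.38) on the cafeteria diet and from 11.25 to 11.87 (11.61) on fast food. All diets overlapped, and the widest difference was that of cafeteria minus fast food mice (-0.29, interval -0.58 to 0.002, unadjusted p = 0.0518). Cafeteria minus pellet was -0.04 (interval -0.33 to 0.25), in the fit where Fasn fell 3.71-fold. 

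Acss2 and Fasn differed in how they placed the chimpanzee diet. Each mouse's Acss2 and Fasn signals were set against the mean of the pellet mice of its batch, and the Fasn change was subtracted from the Acss2 change. The result ran from -0.18 to 0.22 in pellet mice, from -1.96 to -0.98 (median -1.64) on the chimpanzee diet, from -0.30 to 1.17 (0.55) on the cafeteria diet and from -0.97 to 0.27 (-0.45) on fast food. All 6 chimpanzee mice lay below every pellet and cafeteria mouse, and the highest of them (-0.976) was almost level with the lowest fast food mouse (-0.973). Acss2 was reduced more than Fasn in each chimpanzee mouse, while in 5 of 6 cafeteria mice Fasn was reduced more. This contrast was formed after the levels of both genes had been seen and is a description without a test.

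**Figure D3:**
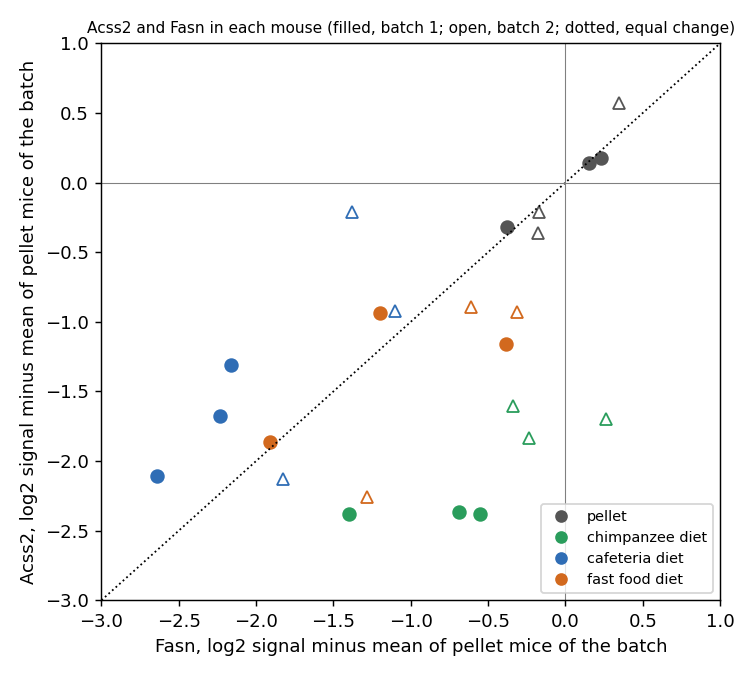
Log2 change of Acss2 against that of Fasn in each of 24 mice, relative to the pellet mice of the same batch, with filled circles for batch 1, open triangles for batch 2 and a dotted line of equal change. Chimpanzee mice lie below the line at -1.96 to -0.98, and 5 of 6 cafeteria mice lie above it.

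Among themselves the genes were correlated to very different degrees over the 24 mice, after each batch was centred. Fasn and Pklr (Pearson r = 0.932), Acly and Acss2 (0.91) and Acaca and Fasn (0.898) were the closest pairs. Acss2 and Pklr had an r of 0.353, and Acss2 and Mlxipl were the lowest pair with -0.186. Of 36 pairs, 23 had an r above 0.5 and 2 were below 0, with a median of 0.548. The mice share diets and arrays, so these values describe the data and carry no p.

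Some mice were the lowest or highest of their diet for several genes at once, ranked on signals that were not batch-centred. Fast food batch 1 replicate 2 and batch 2 replicate 2 were the 2 lowest fast food mice for 7 of the 9 genes, and fast food batch 1 replicate 3 was the highest for 6. The 2 lowest cafeteria mice were replicate 1 of both batches for 6 genes, and on pellets replicates 1 and 2 of batch 2 were lowest for 8. Pellet means were lower in batch 2 than in batch 1, with 8.275 against 9.172 in Pklr and 9.481 against 10 in Fasn. A batch offset and a trait of single mice cannot be told apart in the pellet ranks. Of the mice named in these ranks, only fast food batch 2 replicate 2 was among the 4 arrays of narrow range. Without those 4 arrays the counts against pellets were 7 on the cafeteria diet, 3 on fast food and 2 on the chimpanzee diet, although on fast food Pklr (adjusted p = 0.0467) took the place of Acly (adjusted p = 0.0538).

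**Figure D4:**
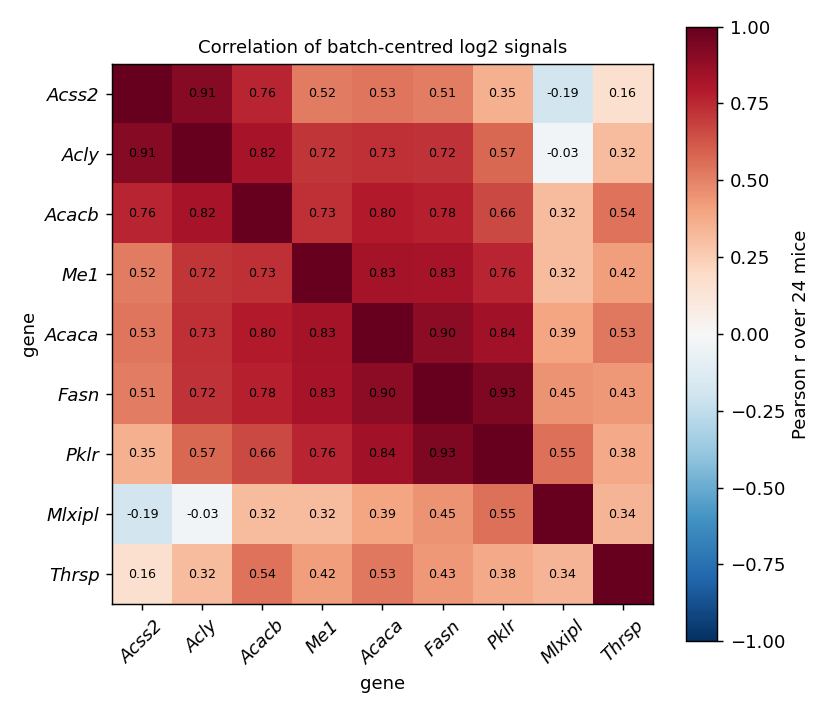
Pearson correlation of batch-centred log2 signals for each pair of the 9 genes over 24 mice. Acss2 and Acly form one close pair (0.91), Acaca, Fasn and Pklr another set (0.841 to 0.932), and Mlxipl and Thrsp are the least tied to the rest.

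Within batch 2 alone, with 3 mice per diet, 0 members were called in any of the 8 comparisons between diets (limma), and 0 to 25 of all genes were. The members with an unadjusted p under 0.05 there numbered 5 for cafeteria against pellet, 4 for human diets against pellet and 2 for chimpanzee against pellet. Batch 1 alone called 7, 4 and 2 in the same comparisons. Neither these counts nor those at an unadjusted p under 0.05 have a share of all genes beside them. In each of the 8 comparisons, 8 of the 9 genes had the same sign in both batches.

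Genes beside the pathway were read from 5 lists. Their calls come from the reported fits alone, and were not repeated with mice left out or with the beta-actin difference as covariate. Of 6 tested genes of NADPH supply, Pgd, an enzyme of the oxidative pentose phosphate pathway, fell on all 3 diets against pellets, by 1.28 on the chimpanzee diet, 1.23 on the cafeteria diet and 0.82 on fast food (log2, adjusted p = 0.000232, 0.000538 and 0.0225). Rpia fell on the cafeteria diet against pellets (-0.80, adjusted p = 0.00133) and against the chimpanzee diet (-0.62, adjusted p = 0.0298). Its signal was low, with means of 4.585 on pellets and 3.79 on the cafeteria diet beside a filter level of 3.147. Taldo1 fell on the chimpanzee diet against pellets (-0.46, adjusted p = 0.0107). Both act in the non-oxidative part of that pathway. The list thus had 2 of 6 lower on the chimpanzee and on the cafeteria diet, 1 of 6 on fast food, and 0 higher, where 7.43%, 2.89% and 1.74% of all genes were called lower.

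Among 10 tested genes of carbon and citrate supply, 3 were called on the chimpanzee diet against pellets, 1 on the cafeteria diet and 0 on fast food, where 10.4%, 4.8% and 3.4% of all genes were called. Khk, the kinase that commits fructose to metabolism, rose on the chimpanzee diet against pellets (0.47 ± 0.12, adjusted p = 0.0134). It was lower on the cafeteria diet (-0.68, adjusted p = 0.0048) and on fast food (-0.51, adjusted p = 0.0258) than on the chimpanzee diet. The beta-actin difference also separated these diets, and its part in the calls of this and the other lists was not tested. Pcx, pyruvate carboxylase, also rose on the chimpanzee diet against pellets (0.55, adjusted p = 0.00213), and Dlat, a subunit of pyruvate dehydrogenase, fell (-0.72, adjusted p = 0.0471). On the cafeteria diet Cs, citrate synthase, fell (-0.41, adjusted p = 0.0306), and on fast food 0 of the 10 were called against pellets (limma). At an unadjusted p under 0.05 there were 2, and the share of all genes at that cutoff was not counted. The citrate carrier Slc25a1 was not called, with cafeteria minus pellet at -0.28 (adjusted p = 0.217).

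Of 13 tested lipogenic regulators, Insig2 and Scap, partners that hold and escort SREBP precursors, fell on all 3 diets against pellets. Insig2 was lower by 1.13 on the chimpanzee diet, 1.27 on the cafeteria diet and 1.14 on fast food (log2, adjusted p = 0.000324, 0.000145 and 0.000593), and Scap by 0.49, 0.47 and 0.40. Srebf1, which encodes the SREBP form that drives lipogenic genes, rose on the chimpanzee diet against pellets (0.61 ± 0.16, adjusted p = 0.0122), as did Rxra, a nuclear receptor partner (0.47, adjusted p = 0.00833). Srebf1 was lower on the cafeteria than on the chimpanzee diet (-0.69, adjusted p = 0.0253), with means of 9.002 on pellets, 9.61 on the chimpanzee diet, 8.93 on the cafeteria diet and 9.36 on fast food. The list had 2 higher and 2 lower of 13 on the chimpanzee diet, and 0 higher and 2 lower on each human diet, beside shares of all genes called of 10.4% on the chimpanzee diet, 4.8% on the cafeteria diet and 3.4% on fast food.

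The control of acetyl-CoA carboxylase was covered by 8 tested genes. Mid1ip1, whose protein promotes polymerization of the enzyme, fell on the cafeteria diet against pellets (-0.79, adjusted p = 0.0332) and against the chimpanzee diet (-0.96, adjusted p = 0.0241). Prkaa2, a catalytic subunit of AMP-activated kinase, rose on the chimpanzee diet against pellets (0.52, adjusted p = 0.0382). These were the calls of this list, so that 1 of 8 was called against pellets on the chimpanzee diet and on the cafeteria diet and 0 on fast food. The shares of all genes called were 10.4%, 4.8% and 3.4%, so 1 of 8 on the chimpanzee diet lay near the background.

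Downstream, 14 genes that elongate, desaturate or esterify the products were tested. On the cafeteria diet 5 fell against pellets and 2 rose, where 4.8% of all genes were called and 2.89% were called lower. Elovl6, which elongates palmitate, fell by 2.13 on the log2 scale (adjusted p = 0.00133) and Pnpla3, a lipase-like protein of lipid droplets, by 2.58 (adjusted p = 0.00178), to a cafeteria mean of 3.66 that is close to the filter level of 3.147. Gpam, the acyltransferase that begins glycerolipid synthesis, fell by 0.90 (adjusted p = 0.000381), and Acsl5 and Agpat2 fell as well. Lpin2 (0.80, adjusted p = 0.000765) and Dgat2 (0.34, adjusted p = 0.0424), which act late in triglyceride synthesis, rose. On the chimpanzee diet 3 rose (Lpin1 by 1.79, adjusted p = 0.00836, with Lpin2 and Dgat2) and 3 fell (Acsl5, Elovl5 and Gpam). There 10.4% of all genes were called and 7.43% were called lower. On fast food 0 of the 14 were called against pellets (limma), where 3.4% of all genes were called. In that comparison 7 of the 14 had an unadjusted p under 0.05, and the share of all genes at that cutoff was not counted. Lpin1 was lower on fast food than on the chimpanzee diet (-1.87, adjusted p = 0.0236).

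**Figure D5:**
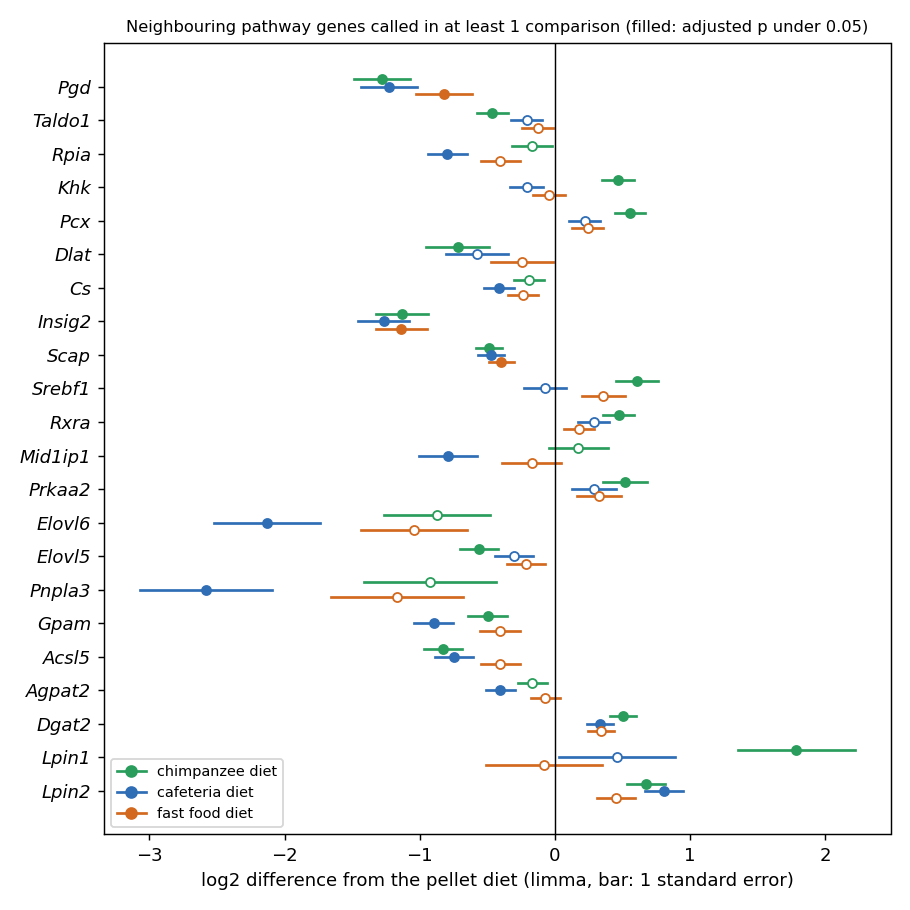
Log2 difference from pellets of the neighbouring genes that were called in at least 1 comparison, with 1 standard error of limma and filled points at an adjusted p under 0.05. Pgd, Insig2 and Scap are lower on all 3 diets, and Khk, Pcx, Srebf1, Rxra and Lpin1 are filled above 0 on the chimpanzee diet.

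The genes most like the 9 were found by correlating each other gene, batch-centred, with the mean scaled profile of the 9 over 24 mice. The 10 highest were Elovl6 (r = 0.942), Gpam (0.889), Pygl (0.888), Cyb5r3 (0.871), Pnpla3 (0.858), Enpep (0.83), Aacs (0.826), Tkt (0.815), Derl2 (0.804) and Scd1 (0.798). The 9 genes themselves had values from 0.449 (Mlxipl) to 0.933 (Acaca and Fasn), each being part of the profile. Among all genes the 95th percentile of this r was 0.431.

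Other probe sets of the same genes mostly moved alike. Both further Acly probe sets above the filter and the further Acss2 probe set were called lower on the chimpanzee and cafeteria diets against pellets, when every probe set was tested as its own feature, and both further Pklr probe sets were called lower on the cafeteria diet (-1.55 and -1.60). On fast food against pellets the further Acss2 probe set was called in this test (adjusted p = 0.0168). The further Acly probe sets were split there (adjusted p = 0.023 and 0.102), and the Acly probe set described above just missed the threshold (adjusted p = 0.0501). The second Me1 probe set had a smaller cafeteria difference (-0.74, adjusted p = 0.0877). Faint probe sets differed from their genes. The faint ones of Acaca and Acacb, with diet means from 3.22 to 3.53 and from 3.54 to 3.64, were called in no comparison with pellets. A faint Thrsp probe set (means 3.44 to 3.84) was called lower than on pellets by 0.40 on the chimpanzee diet and 0.39 on the cafeteria diet (adjusted p = 0.0183 and 0.0374), whereas the bright probe sets of Thrsp were not. The 4 probe sets below the filter, 3 for Acly and 1 for Acss2, had diet means between 2.14 and 3.02, and 1 further probe set that names Acss2 with a second gene was not used.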

How the data were processed

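RNA from whole liver of 24 mice, 6 per diet in 2 batches of 3, was hybridized to Affymetrix mouse genome arrays, 1 array per mouse with no technical replicates. The authors deposited log2 expression values calculated with rma of the affy package, which corrects background, normalizes by quantiles and summarizes the probes of a probe set. The 24 columns nevertheless do not share 1 distribution (90th percentiles from 5.66 to 6.61), so how the quantile step was applied is not known, and a further quantile normalization was run as an alternative. The affy version is not given in the sources used here, nor is it stated whether the study's brain arrays were normalized together with these. Arrays are limited in precision by their number, and depth does not apply. The labels name separate mice but no litters.

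Of 45101 probe sets, 64 controls were set aside. GEO's platform annotation gave 1 gene symbol to 34945 of the remainder, several to 932 and none to 9160. A probe set was kept when 6 or more arrays exceeded 3.147 (the median over the whole table), and each gene was read from its probe set of highest mean, which left 13384 genes. Differences were fitted with limma 3.58.1 in R 4.3.3 (lmFit, eBayes, batch as covariate), and p-values were adjusted by Benjamini-Hochberg over all genes with a threshold of 0.05. Pooled human diets were fitted on 18 mice, and pairs of diets within 1 fit of 24. The methods' linear model, an unmoderated fit with diet and batch, was run as an alternative at an unadjusted p of 0.01. It left out probe sets with a diet-by-batch interaction at an unadjusted p under 0.05. Each gene was then read from its probe set of smallest p, which can differ from the probe set of highest mean. The fits were tested on simulated data. The members, gene lists and tests were chosen with earlier results of these data known. Named genes were the 9 members, genes of the 5 lists that were called, and the 10 most alike in pattern, and Slc25a1 and list genes beyond 4 per list were named after their values were seen. Comparisons of the cafeteria and fast food diets with the chimpanzee diet, part of the alternatives for single human diets against pellets, the spaced motif and the contrast of Acss2 with Fasn were added after the data had been seen. Brain arrays were not analysed here.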

Additional observations from a re-analysis of the deposited data

How the results depend on the processing

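For the 9 genes in the 8 comparisons and the test over all diets, 81 results, 3204 values under alternatives were computed. Of these, 2936 kept direction and side of the threshold, 113 fell short of it, 88 newly passed it, 63 changed sign below it and 4 were past it with the opposite sign, all for Thrsp. Thrsp was then -0.40 on the chimpanzee diet against pellets with every probe set as its own feature (adjusted p = 0.0183) and under the methods' linear model before and after adjustment, and -0.34 in human diets against pellets under that model before adjustment, since these settings read the faint probe set.

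In batch 2 alone the count of members called was 0 in human diets against pellets (4 in the fit reported) and against the chimpanzee diet (1), in chimpanzee (2), cafeteria (7) and fast food (3) against pellets, in cafeteria against chimpanzee (2) and in the test over all diets (7). Batch 1 alone, with as many mice, called 4, 2, 7 and 3 members in human, chimpanzee, cafeteria and fast food diets against pellets. Human diets against the chimpanzee diet was the least stable count. It was 0 with no filter, with a filter of at least 2 arrays, with every probe set as its own feature, with batch left out, in batch 1 alone, with the beta-actin covariate, without the 4 arrays of narrow range and under the methods' linear model after adjustment. It was 3 under cyclic loess, quantile normalization, the 90th percentile as covariate, the fit of all 24 mice and the methods' model before adjustment, and 4 with array weights. The share of all genes called rose there too, from 1.49% to 4.06%, 3.48%, 4.6%, 3.16% and 6.43%, and to 9.5% with array weights. Chimpanzee against pellet gave 4 with array weights and in the fit of 12 mice, and 1 with the beta-actin covariate. Cafeteria against fast food gave 3 under the methods' model before adjustment. Cafeteria against chimpanzee gave 5 under cyclic loess, quantile normalization and that model, 4 with array weights and 1 in batch 1 alone. Fast food against chimpanzee gave 1 in batch 1 alone and without the 4 arrays, and 2 with array weights. The calls over all genes moved between settings as well. They ran from 0 to 701 for cafeteria against chimpanzee (168 reported) and from 1 to 1476 for fast food against chimpanzee (272). Apart from human diets against chimpanzee, the counts of single settings have no share of all genes beside them. The causes were not tested.

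Leaving out each mouse in turn gave 4 to 6 members in human diets against pellets, 0 to 3 in human diets against chimpanzee, 2 to 2 in chimpanzee against pellet, 0 to 0 in cafeteria against fast food, 6 to 7 in cafeteria against pellet, 1 to 4 in fast food against pellet, 2 to 3 in cafeteria against chimpanzee, 0 to 1 in fast food against chimpanzee and 5 to 8 over all diets. The count of 1 for fast food against pellet came without fast food batch 1 replicate 2, fast food batch 2 replicate 2 or pellet batch 1 replicate 1 or 2. Acss2 passed the threshold as higher on human diets and on fast food than on the chimpanzee diet without fast food batch 2 replicate 2, and Fasn and Mlxipl passed it as lower on human diets than on the chimpanzee diet without fast food batch 1 replicate 3.

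Replicate numbers of the same batch did not pair the mice: of 36 pairs with the same number, 12 had a correlation of deviations over 0.1 (range -0.64 to 0.41). With the number as a replicate block, the members called were 4 in human diets against pellets, 0 in human diets against chimpanzee, 2 in chimpanzee against pellet, 0 in cafeteria against fast food, 7 in cafeteria against pellet, 2 in fast food against pellet, 2 in cafeteria against chimpanzee, 0 in fast food against chimpanzee and 7 over all diets. The share of all genes called with this block is not given beside these counts.

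Between settings the count of all genes called ran from 25 to 1384 for human diets against pellets, where 666 were reported, from 1 to 1272 (200) for human diets against chimpanzee, from 25 to 2342 (1387) for chimpanzee against pellet and from 8 to 1358 (643) for cafeteria against pellet. Genes of low signal are limited by background, and folds of faint probe sets are compressed.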
